A study of Homo sapiens with 6 samples.

Results

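Fascin, tropomyosin, caldesmon, transgelin, alpha-actinin and caveolin genes were examined in IGR37, a human melanoma cell line, with and without induction of nuclear beta-catenin. The 10 genes were FSCN1, TAGLN, CALD1, MYL9, TPM1, TPM2, TPM4, ACTN1, CAV1 and CAV2, taken by symbol from the authors' deposited table of 12558 genes; 9 have a row there, and MYL9, the regulatory light chain of myosin II, is not analysed here. They were chosen by role at the actin cortex and by their fold changes and FDRs in this same table, which were already known, so their fold changes and FDRs are given as a description and carry no test of the group. All cells, untreated ones included, carried a piggyBac-borne, doxycycline-switched CTNNB1 fused to the nuclear localisation signal of SV40 Large T-antigen and had been selected with G418; whether the line was a clone or a pool is not given in the labels. There were 3 libraries without doxycycline (0 h) and 3 after 24 h with doxycycline at 20 ng/ml, sequenced from the 3' end of polyadenylated transcripts.

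Actin filaments give a cell its shape and its pull. Fascin packs filaments into the tight parallel bundles of filopodia and invadopodia, alpha-actinin cross-links them in stress fibres, tropomyosins and caldesmon coat them and set the access of myosin II, and transgelin is a calponin-family filament binder best known from smooth muscle. Caveolins are the membrane proteins that, with the cavins, build caveolae, the flask-shaped pits of the plasma membrane. In melanoma, many of these genes are known from invasive, mesenchymal-like cells rather than from pigmented ones.

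The authors' deposited table holds a fold change, an average level and an edgeR F test for each gene, without values for single libraries, so replicate values and the depth of each library cannot be shown. Which group was divided by which is not written in its header; "higher" and "lower" stand for its positive and negative side. CTNNB1, the induced gene, was 3.89-fold higher per the authors' deposited table (log2 1.96, SE 0.13, edgeR FDR 1.24e-08). SE here is approximate, the size of the log2 fold change divided by the square root of F. Group levels, in CPM or counts per library size, are those implied by the average and the fold change if both groups weigh equally; summed over all rows they come to 1011370 CPM on the positive side and 1001540 on the negative side. Of 59 synthetic spike-in RNAs of the authors' deposited table, 28 had an FDR under 0.05, all higher; their median log2 value was 0.57, with quartiles of 0.40 and 0.69. Relative to the spike-ins every log2 value below would be 0.57 lower. The libraries of both sides are labelled as the same melanoma line, yet 8 melanocyte markers summed to an implied 7665 CPM on the positive side but only 116 CPM on the negative side, while fibroblast markers summed to 17.7 and 414 CPM. Whether both groups are in fact the same line was not tested and is in doubt from these sums, so each fold change is one between the groups as labelled. The groups differ in lineage markers as well as in the labelled induction, and the shares of these in the values of the 9 genes cannot be told apart.

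Of the 9 genes with a row, 7 were lower and 0 higher at an edgeR FDR under 0.05 in the authors' deposited table, where 26.4% of all genes were lower, 24.5% higher and 50.9% either. The same 7 were lower by at least 2-fold, as were 15.6% of all genes with that FDR. FSCN1, TAGLN and CAV1 were lower by more than 16-fold, a size that 3.63% of genes reached or passed on the lower side per the authors' deposited table. CALD1 and TPM2 did not pass. The count of 7 lower genes was the same under each alternative tried, under which the lower share of all genes was 52.3% with centring on the spike-ins (11.3% higher), 17.3% with 4 denominator degrees of freedom, 20.0% at an FDR under 0.01, 26.9% among genes with an average log2 CPM of 1 or more, and 26.4% with spike-ins left out of the adjustment. Nothing is read from these counts, since the choice of genes used the comparison. The median log2 fold change of the 9 genes was -1.99, beside -0.01 for all genes; relative to the spike-ins these were -2.56 and -0.58. None of the 9 showed the loss of 2 denominator degrees of freedom that is taken here to mark a gene without reads in 1 group. On that reading each fold rests on reads in both. In bulk RNA, fewer cells with a transcript and less of it per cell cannot be told apart.

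**Figure D1:**
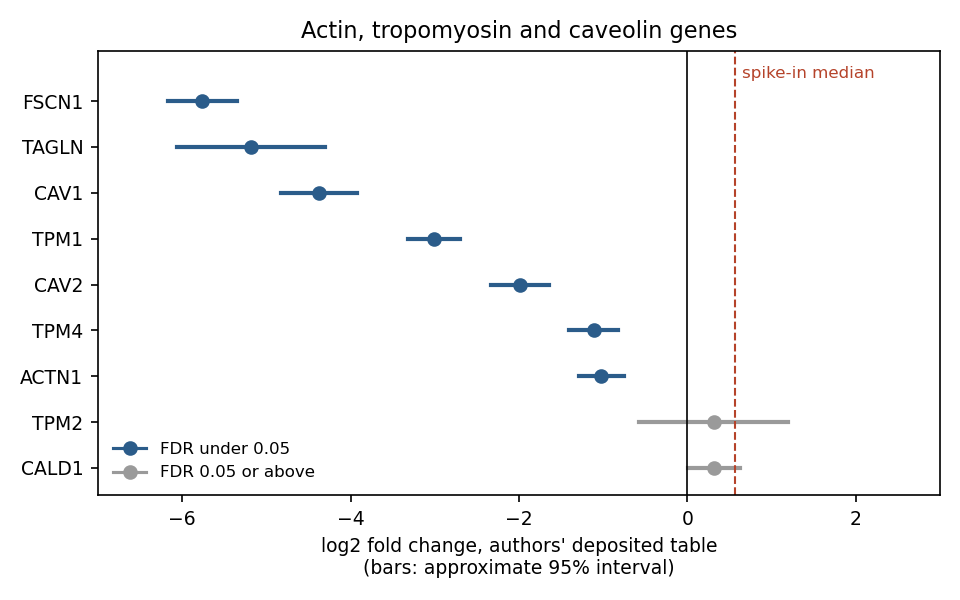
Log2 fold change of each gene per the authors' deposited table (horizontal axis), with an approximate 95% interval from the F statistic; blue marks an edgeR FDR under 0.05 and the dashed line the spike-in median of 0.57. The 7 blue genes run from -5.76 for FSCN1 to -1.02 for ACTN1, and the intervals of TPM2 and CALD1 lie around 0.31.

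FSCN1, which encodes fascin, was 54.2-fold lower per the authors' deposited table, with a log2 change of -5.76 (SE 0.19, approximate 95% interval -6.16 to -5.35) and an edgeR FDR of 5.41e-11. Its implied level was 292 CPM in the negative group and 5.39 CPM in the positive group. Only 1.71% of genes had a more negative value, and by p-value FSCN1 ranked at position 7 of the 12617 rows of the authors' deposited table. The gene is found on chromosome 7, plus strand, at 5592816 to 5606655 (hg38). Its nearest measured neighbours had smaller values: ACTB, the cytoplasmic beta-actin gene, stood at a log2 change of -0.57 (edgeR FDR 0.00341) and RNF216, a ubiquitin ligase gene, at 0.38 (edgeR FDR 0.0386; -0.19 when centred on the spike-ins) per the authors' deposited table.

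TAGLN, transgelin, was 36.3-fold lower (log2 -5.18, SE 0.41, edgeR FDR 1.14e-07) per the authors' deposited table. The implied levels were 80.2 CPM and 2.21 CPM, and its interval of -6.06 to -4.30 was the second widest among the 9 genes. TAGLN is on chromosome 11, plus strand, at 117199370 to 117207464. Exons of PCSK7, on the opposite strand, overlap it; PCSK7 stood at a log2 change of -0.65 per the authors' deposited table, and whether the counting used strand is not given in the sources used here. TAGLN2, the widely expressed relative of transgelin, was 3.62-fold lower per the authors' deposited table (log2 -1.85, SE 0.14, edgeR FDR 4.72e-08).

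The tropomyosins, coiled-coil proteins that lie along the filament, differed among themselves. TPM1 was 8.06-fold lower per the authors' deposited table (log2 -3.01, SE 0.14, edgeR FDR 5.85e-10), with implied levels of 592 and 73.4 CPM. TPM4 was 2.16-fold lower per the same authors' deposited table (log2 -1.11, SE 0.14, edgeR FDR 1.07e-05), with 378 and 175 CPM. TPM2 stood at a log2 change of 0.31 (SE 0.41, edgeR FDR 0.554) per the authors' deposited table. Its implied levels of 2.53 and 3.15 CPM were low, and its interval ran from -0.58 to 1.20. TPM3, which was on a separate list, stood at a log2 change of -0.42 with an edgeR FDR of 0.0239 per the authors' deposited table; with 4 denominator degrees of freedom its FDR was 0.0949 and it did not pass. The intervals of TPM1 (-3.32 to -2.70), TPM4 (-1.41 to -0.82) and TPM2 did not overlap. Reads of the 3' end are counted per gene here, so muscle and non-muscle isoforms of a tropomyosin gene are not separated.

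ACTN1, the non-muscle alpha-actinin of stress fibres and adhesions, was 2.03-fold lower per the authors' deposited table (log2 -1.02, SE 0.12, edgeR FDR 9.00e-06). Its implied levels were 1090 CPM and 537 CPM. Its close relative ACTN4 was 2.06-fold lower (log2 -1.05, SE 0.13, edgeR FDR 1.17e-05) per the authors' deposited table. The log2 values of the pair differed by 0.03, less than either SE.

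CALD1, caldesmon, which binds actin, myosin and tropomyosin and restrains the myosin motor, stood at a log2 change of 0.31 (SE 0.14) per the authors' deposited table. Its implied levels were 201 and 250 CPM, well above the floor of the table, unlike those of TPM2. The unadjusted p was 0.0472 and the edgeR FDR 0.0843, so it did not pass; relative to the spike-ins its value changed sign, to -0.26. CALD1 is on chromosome 7, plus strand, at 134744252 to 134970729.

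**Figure D2:**
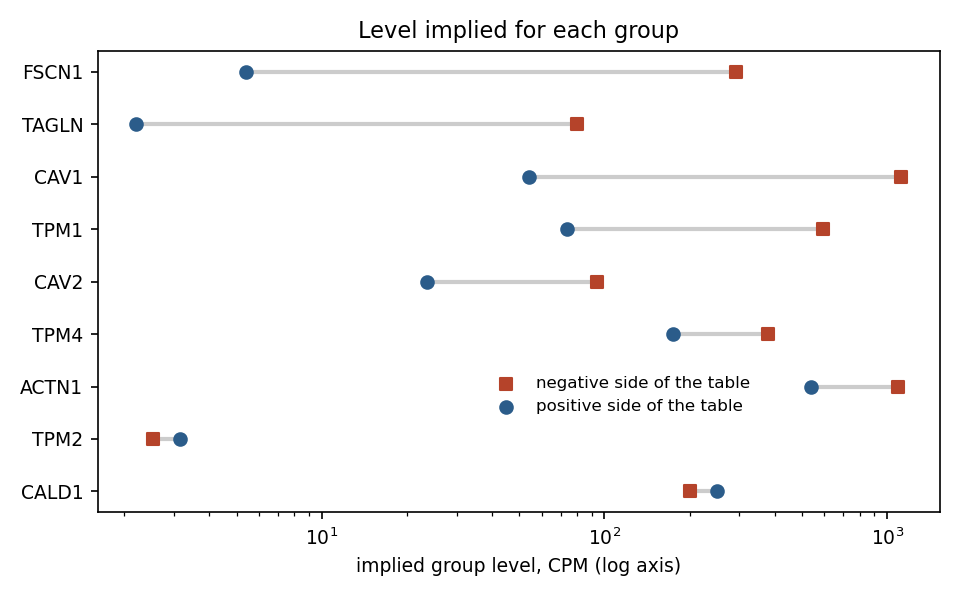
Group level implied for each gene by its average CPM and fold change (log axis); squares are the negative and circles the positive side of the authors' deposited table. FSCN1 spans 292 to 5.39 CPM and CAV1 1123 to 54.1 CPM, while the marks of CALD1 and TPM2 nearly touch.

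Upstream sequence is shown for TPM4 and ACTN1 because each holds a CArG box, the element bound by SRF, the serum response factor known for driving actin and contractile genes. RefSeq promoter windows (GRCh38.p14, 250 bases before to 50 after a start site) matched 7 of the 10 genes with 19 windows; FSCN1, TAGLN and MYL9 did not match. The motifs were searched on both strands: the CArG box, GGAATG for TEAD factors, CTTTGAA or CTTTGAT for TCF/LEF factors, CACGTG or CACATG for MITF, and TGANTCA for AP-1; no match overlapped another. A CArG box was found in 2 of the 19 windows, and in 1.29% of 35116 windows of the same length from all genes. The windows of CAV1, CAV2, TPM1, TPM2 and CALD1 held no CArG box. The only TPM1 window lies inside the annotated span of that gene. Whether a CArG box goes with the size of a fold change was not tested. The other motifs were found in 3 windows for TEAD (14.0% of all windows), 1 for TCF/LEF (6.86%), 1 for MITF (17.6%) and 1 for AP-1 (7.71%). Capitals in the stretches below mark the CArG box, which starts 173 bases before the start site in TPM4 and 171 bases before it in ACTN1, and in ACTN1 also a TEAD motif at 154 bases. The TPM4 stretch is chr19:16067307-16067533 on the plus strand and the ACTN1 stretch chr14:68977655-68977816 on the minus strand. Both lie inside the annotated spans of their genes, before internal start sites. A match of letters is a description and not a bound site.
TPM4: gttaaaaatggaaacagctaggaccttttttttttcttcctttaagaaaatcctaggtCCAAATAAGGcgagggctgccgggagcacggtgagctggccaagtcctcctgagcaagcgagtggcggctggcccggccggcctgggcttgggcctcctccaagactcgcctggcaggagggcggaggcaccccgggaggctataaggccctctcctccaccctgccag
ACTN1: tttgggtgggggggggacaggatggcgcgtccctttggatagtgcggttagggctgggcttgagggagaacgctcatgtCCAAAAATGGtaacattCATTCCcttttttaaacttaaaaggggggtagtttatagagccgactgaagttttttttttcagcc

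SRF itself did not pass (log2 fold change -0.10, edgeR FDR 0.623; -0.67 and lower when centred) per the authors' deposited table. Of 6 measured genes for SRF and its cofactors, 2 were lower and 0 higher, with a median of -0.23 per the authors' deposited table. MKL1 (MRTFA), the actin-sensing cofactor of SRF, was 2.90-fold lower (log2 -1.54, SE 0.18, edgeR FDR 6.81e-06), and ELK3, an ETS partner, 1.85-fold lower (log2 -0.89, SE 0.19, edgeR FDR 0.00125) per the authors' deposited table. Centred on the spike-ins 5 of the 6 were lower. Beside the counts of this list and those below, 26.4% of all genes were lower and 24.5% higher as deposited. With centring these shares were 52.3% and 11.3%.

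The caveolin pair was lower together. CAV1, the caveolin without which caveolae do not form in non-muscle cells, was 20.8-fold lower per the authors' deposited table (log2 -4.38, SE 0.21, interval -4.83 to -3.92, edgeR FDR 6.21e-10). Its implied levels were 1123 CPM and 54.1 CPM. CAV2, which forms complexes with caveolin-1, was 3.97-fold lower per the authors' deposited table (log2 -1.99, SE 0.16, interval -2.33 to -1.64, edgeR FDR 1.34e-07), with 93.8 and 23.6 CPM. The log2 values differed by 2.39, and the intervals did not overlap.

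Both genes lie on the plus strand of chromosome 7, CAV2 at 116287380 to 116508541 and CAV1 at 116524994 to 116561179, with 16.5 kb between them. On the CAV2 side the next measured gene, the LIM protein gene TES, was 4.23-fold lower per the authors' deposited table (log2 -2.08, SE 0.19, edgeR FDR 5.96e-07). On the CAV1 side the receptor gene MET stood at a log2 change of -0.15 (SE 0.17, edgeR FDR 0.475) and the capping-protein gene CAPZA2 of -0.25 (SE 0.22, edgeR FDR 0.351) per the authors' deposited table. ST7-AS1 had -1.14 with an edgeR FDR of 0.08 per the authors' deposited table. Centred on the spike-ins, MET (-0.72), CAPZA2 (-0.82) and ST7-AS1 (-1.71) passed as lower. The 3 genes from TES to CAV1 thus passed as deposited and the 3 beyond did not; the difference between the sides was not tested.

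**Figure D3:**
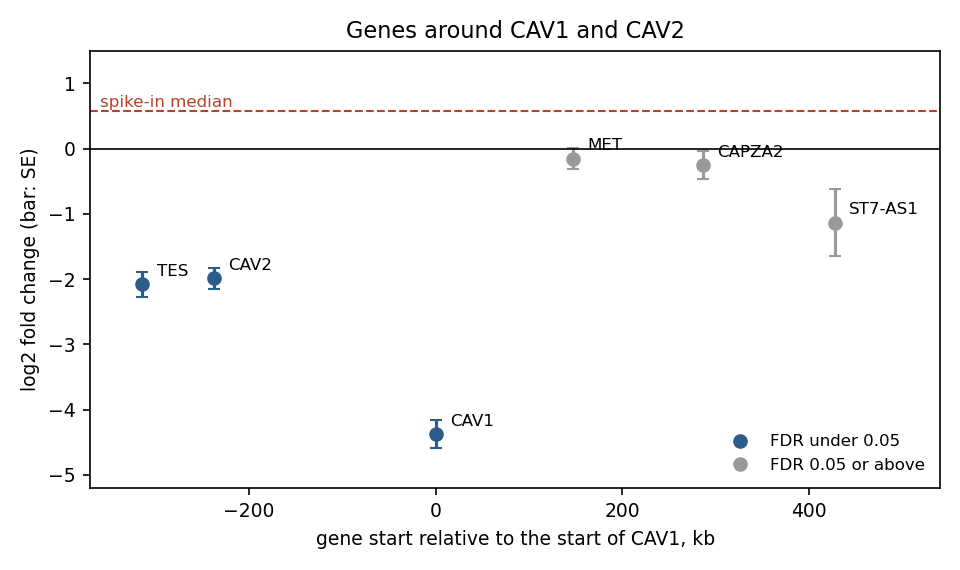
Log2 fold change (vertical axis, bars show the approximate SE) of the measured genes around CAV1, placed by the distance of their starts from that of CAV1 in kb; blue marks an edgeR FDR under 0.05. TES, CAV2 and CAV1 sit at -2.08, -1.99 and -4.38, and MET, CAPZA2 and ST7-AS1 between -0.15 and -1.14.

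The sequence before a RefSeq start site of each caveolin gene is shown, since the neighbours share a direction and differ in size. The CAV1 stretch is chr7:116524759-116524993 and the CAV2 stretch chr7:116499488-116499737, both on the plus strand and from RefSeq (GRCh38.p14). The CAV2 stretch lies inside the span given for that gene above, before an internal start site. No window of either gene held any of the motifs searched, which says only that these letters are not there.
CAV1: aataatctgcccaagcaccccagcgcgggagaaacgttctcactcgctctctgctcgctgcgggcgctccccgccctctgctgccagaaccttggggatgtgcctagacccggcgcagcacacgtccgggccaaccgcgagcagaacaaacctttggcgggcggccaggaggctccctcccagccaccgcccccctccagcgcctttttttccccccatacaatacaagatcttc
CAV2: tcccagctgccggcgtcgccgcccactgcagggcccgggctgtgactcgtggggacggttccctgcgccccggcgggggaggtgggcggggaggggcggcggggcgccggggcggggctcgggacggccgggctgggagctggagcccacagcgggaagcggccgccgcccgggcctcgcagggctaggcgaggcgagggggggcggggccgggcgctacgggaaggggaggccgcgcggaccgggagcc

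Among 9 other measured caveola genes, 4 were lower and 2 higher, with a median of -0.37 per the authors' deposited table. EHD2, the ATPase at the caveolar neck, was 71.3-fold lower (log2 -6.16, SE 0.43, edgeR FDR 3.13e-08), and averaged 26.7 CPM per the authors' deposited table. Its implied levels were 52.6 CPM on the negative side and 0.74 CPM on the positive side. The latter is near the floor, so the size of the fold is uncertain. PTRF (CAVIN1), the coat protein that caveolae need, was 12.7-fold lower (log2 -3.67, SE 0.17, edgeR FDR 3.78e-10) per the authors' deposited table, with implied levels of 1931 and 152 CPM. PRKCDBP (CAVIN3), another cavin, was 2.99-fold lower (log2 -1.58, edgeR FDR 1.30e-06) per the authors' deposited table. On the other side stood PACSIN2, a membrane-bending protein, at log2 0.71 (edgeR FDR 0.00108) and the raft protein gene FLOT1 at 0.51 (edgeR FDR 0.0141) per the authors' deposited table. Centred on the spike-ins the split was 6 lower and 0 higher, with PACSIN2 at 0.14 and FLOT1 at -0.063.

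Of 12 other thin-filament and calponin-family genes, 9 were lower and 1 higher, with a median of -0.82 per the authors' deposited table (11 lower and 0 higher centred on the spike-ins). CNN2, a non-muscle calponin, was 6.72-fold lower (log2 -2.75, SE 0.17, edgeR FDR 7.69e-09) per the authors' deposited table. ACTG2, a smooth muscle actin, was 10.2-fold lower (log2 -3.35, SE 0.80, edgeR FDR 0.00282) at an average of 2.77 CPM per the authors' deposited table. TMOD2, which caps pointed filament ends in neurons, was the higher member at log2 0.90 (SE 0.31, edgeR FDR 0.0266; 0.33 and not passing when centred) per the authors' deposited table. ACTA2 was lower with no reads in 1 group, as judged by its degrees of freedom, and is given no fold. Actin genes share much sequence, and a read may have been assigned to a relative.

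Myosin II genes went both ways. Of 19 measured genes for myosin II and its regulators, 8 were lower and 2 higher, with a median of -0.28 per the authors' deposited table (15 and 2 centred on the spike-ins). The higher genes were both heavy chains: MYH10 (non-muscle myosin IIB) was 12.4-fold higher (log2 3.63, SE 0.25, edgeR FDR 2.19e-08) and MYH14 (IIC) 4.48-fold higher (log2 2.16, SE 0.26, edgeR FDR 8.64e-06) per the authors' deposited table. MYH9, the IIA heavy chain, was lower at log2 -1.49 (edgeR FDR 2.74e-07) per the authors' deposited table; it was picked after its value was seen. The light-chain kinase gene MYLK was 4.93-fold lower (log2 -2.30, SE 0.19), the light chain MYL6 3.24-fold lower (log2 -1.69, SE 0.13) and RND3, which encodes a small GTPase that loosens stress fibres, 5.21-fold lower (log2 -2.38, SE 0.16) per the authors' deposited table, each with an edgeR FDR of 1.34e-07 or less. RHOA, a GTPase that activates myosin II, stood at a log2 change of -0.09 with an edgeR FDR of 0.567 (-0.66 and lower when centred) per the authors' deposited table.

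Among 9 other bundlers and crosslinkers, 4 were lower and 1 higher, with a median of -0.56 per the authors' deposited table (7 and 0 centred on the spike-ins). Besides ACTN4, MARCKS, a membrane-bound filament binder, was 1.65-fold lower (log2 -0.72, SE 0.13, edgeR FDR 0.000329) per the authors' deposited table. MARCKSL1 was the higher member at log2 0.59 (edgeR FDR 0.0165; 0.024 and not passing when centred) per the authors' deposited table. FLNA, the most widely expressed filamin, stood at a log2 change of 0.0084 with an edgeR FDR of 0.971 (-0.56 and lower when centred) per the authors' deposited table. No gene of this list came near the value of FSCN1.

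Focal adhesion and LIM adaptor genes, which tie stress fibres to integrins, had rows for all 30 listed, with 21 lower, 2 higher and a median of -0.96 per the authors' deposited table (28 and 1 centred on the spike-ins). NEXN, an actin-binding protein of muscle, was 23.2-fold lower at 2.44 CPM on average (log2 -4.54, SE 0.81, edgeR FDR 0.000309) per the authors' deposited table. PDLIM5 was 4.83-fold lower (log2 -2.27, SE 0.19, edgeR FDR 2.53e-07) and CSRP2 4.69-fold lower (log2 -2.23, SE 0.66, edgeR FDR 0.0112) per the authors' deposited table; with 4 denominator degrees of freedom the FDR of CSRP2 was 0.0706 and it did not pass. TNS1, a tensin, was 25.8-fold higher (log2 4.69, SE 0.42, edgeR FDR 3.97e-07) at an average of 7.48 CPM per the authors' deposited table. LPP was at log2 0.53 (edgeR FDR 0.0337) per the authors' deposited table, and at -0.044 without passing when centred.

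Actin turnover genes had 13 lower and 1 higher of 26, with a median of -0.35 per the authors' deposited table (19 and 1 centred on the spike-ins). The monomer-binding thymosin gene TMSB4X was 11.1-fold lower (log2 -3.47, SE 0.38, edgeR FDR 3.50e-06), TMSB15A 3.42-fold lower (log2 -1.77, SE 0.24, edgeR FDR 2.96e-05) and the severing factor gene DSTN 3.01-fold lower (log2 -1.59, SE 0.12, edgeR FDR 7.33e-08) per the authors' deposited table. CAPG, a gelsolin-family capping protein, was 18.3-fold higher (log2 4.20, SE 0.19, edgeR FDR 3.52e-10), with implied levels of 88.7 and 1625 CPM, per the authors' deposited table. TMSB4X has many near-identical copies in the genome, so its reads may be split.

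**Figure D4:**
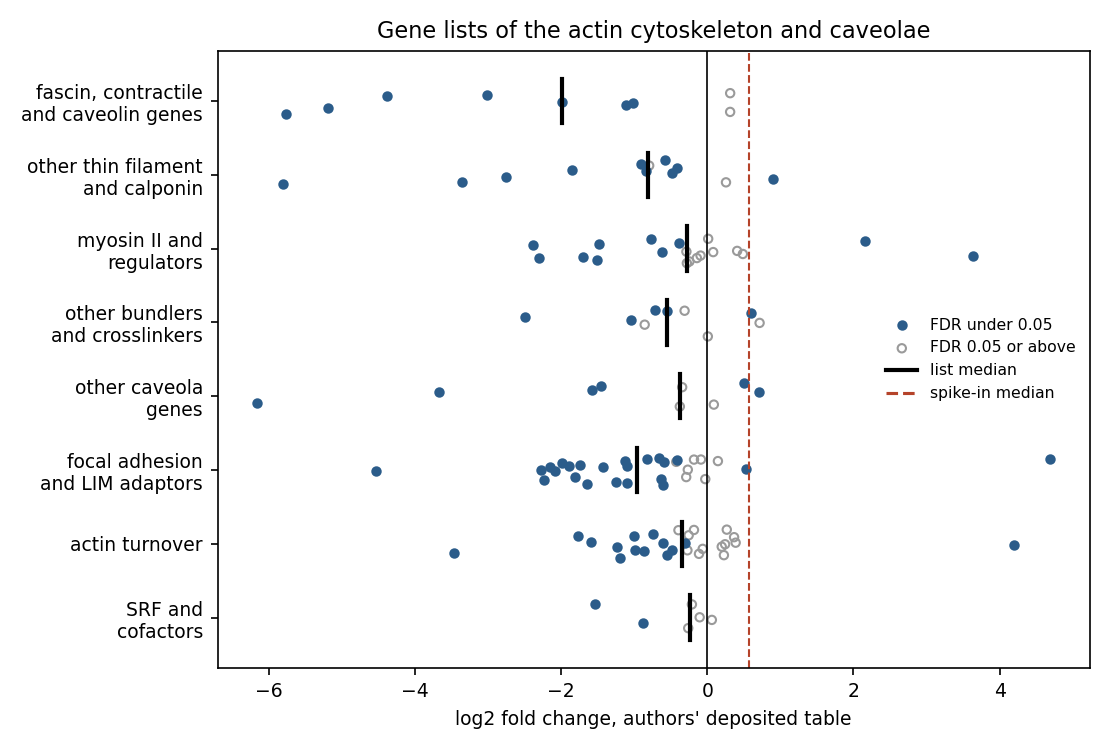
Log2 fold change per the authors' deposited table of each measured gene of 8 lists; filled points have an edgeR FDR under 0.05, black bars are list medians and the dashed line is the spike-in median. The list medians are below 0, from -1.99 to -0.23, with MYH10, TNS1 and CAPG far to the right.

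Markers of cell identity moved over the same comparison. The 8 melanocyte markers (MLANA, PMEL, TYR, DCT, TYRP1, SOX10, MITF, S100B) were all higher, with a median log2 value of 6.30 and the lowest, 4.22, for MITF per the authors' deposited table. Among fibroblast markers, 7 were measured; 5 were lower, and LUM was higher per the authors' deposited table; DCN, PDGFRB and THY1 have no row. All 4 measured smooth muscle markers were lower, with sums of 61.5 and 16.8 CPM per the authors' deposited table, but with 4 denominator degrees of freedom 3 passed (SMTN FDR 0.104); 3 of these (ACTA2, ACTG2, SMTN) are also on the thin-filament list, and the defining MYH11, DES, CNN1, LMOD1, MYOCD and SYNPO2 have no row.

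By position, FSCN1, CAV1, CAV2 and CALD1 lie on chromosome 7, whose 577 measured genes had a median log2 fold change of 0.11 and were lower in 20.1% and higher in 28.2% of cases per the authors' deposited table. TPM1 lies on chromosome 15 at 63042620 to 63071915, where the median of 413 genes was 0.54 and 49.6% were higher per the authors' deposited table, opposite in sign to TPM1. ACTN1 lies on chromosome 14 at 68874128 to 68979440, with a median of -0.35 over 410 genes, 36.6% lower and 9.27% higher. TPM2 lies on chromosome 9, with -0.41 over 507 genes, 42.8% lower and 10.7% higher. TAGLN lies on chromosome 11, with -0.17 over 693 genes, 31.9% lower and 17.7% higher. For TPM4 on chromosome 19 the median of 833 genes was 0.16, with 18.7% lower and 26.5% higher. These values are per the authors' deposited table. The 44 measured genes nearest to the 9 (up to 3 on each side within 1 Mb) had a median of -0.40, with 16 lower and 7 higher per the authors' deposited table. Over all genes the median was -0.01, with 26.4% lower and 24.5% higher.

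**Figure D5:**
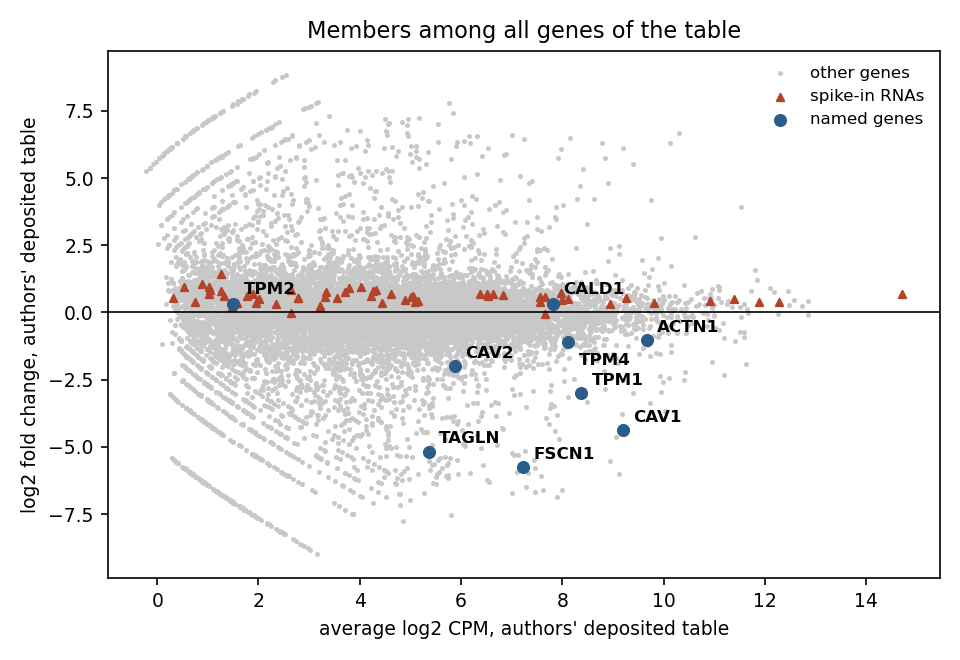
Log2 fold change against average log2 CPM per the authors' deposited table for all genes (grey), spike-in RNAs (triangles) and the 9 genes (blue). FSCN1, TAGLN, CAV1 and TPM1 lie far below 0, and CALD1 and TPM2 lie at 0.31, below the lower quartile of the spike-ins (0.40).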

How the data were processed

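RNA was measured in 6 libraries of IGR37 cells, 3 per group, made from 500 ng RNA with a 3'-end kit, per the labels' protocols. STAR and edgeR were run with build hg38, per the submitters' processing notes; no source used here gives versions, counter, annotation or count filter. The authors deposited for each gene, per the file headers, a log2 fold change, the same as a linear fold (ratio), an average log2 CPM, an F score, the p-value of F and the FDR. Depth per library is unknown. The deposited FDR equals Benjamini-Hochberg values over all 12617 rows to within a relative 9.01e-13. Spike-ins took 4.43% of the summed average CPM.

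Computed here from the deposited values, with Python 3.11.15, numpy 2.4.6, pandas 2.3.3 and scipy 1.17.1: denominator degrees of freedom from F and p (14.03 in 12052 rows; 12.03, taken as no reads in 1 group, in 206), approximate SEs and 95% intervals, and implied group levels, which assume groups of equal weight. These steps were tested on simulated data in which both groups weighed equally, so that assumption itself was not tested. No gene without reads in 1 group was simulated, so the reading of 12.03 was not tested either. A gene passed at the authors' edgeR FDR under 0.05. The design foresaw a fit to counts only if the file held them, and it did not. Positions come from GENCODE 44 (hg38), with symbols matching for 11559 gene rows and through RefSeq synonyms for 662.

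The members and lists were chosen with earlier results of these data known. Named were the 9 genes, CTNNB1, the neighbours of CAV1 and CAV2, and per list the 3 largest passing changes on each side with an average log2 CPM of at least 1; TPM3, SRF, RHOA, FLNA, MYH9, ACTA2, PCSK7, ACTB and RNF216 were picked after their values were seen; an item that the rule also named is not reported here. The labels do not say whether replicates were grown separately; p-values then reflect only the spread among these libraries, possibly technical.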

Additional observations from a re-analysis of the deposited data

How the results depend on the processing

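The 7 lower and 0 higher of the 9 genes stayed at these counts under each of 6 alternatives: centring on the spike-ins, 4 denominator degrees of freedom, an FDR under 0.01, at least a 2-fold change, an average log2 CPM of 1 or more, and adjustment without spike-ins. Centring moved the median of the 9 to -2.56 and that of the neighbours to -0.97, and turned CALD1 and TPM2 to -0.26 each, FLOT1 to -0.063, LPP to -0.044, RNF216 to -0.19 and FLNA to -0.56. It raised the changed genes of the myosin II list from 10 to 17 and of the SRF list from 2 to 5. With 4 degrees of freedom or an FDR under 0.01, 3 bundlers (5 as deposited) and 5 thin-filament genes (10 as deposited) passed; with at least 2-fold, 2 bundlers, 4 thin-filament, 6 actin turnover (14 as deposited) and 1 SRF gene did. With 4 degrees of freedom the calls of CSRP2, FLOT1, LPP, MARCKSL1, PCSK7, RNF216, SMTN, TMOD2 and TPM3 were lost (FDR 0.0706 to 0.116), and none of these passed at an FDR under 0.01; all but CSRP2 also changed by less than 2-fold. Over all genes, 6398 passed as deposited and 4140 with 4 degrees of freedom; centred, 1423 were higher and 6564 lower, beside 3080 and 3318. Leaving out a library, another normalization and a fit to counts were not run. No paired analysis was possible because the table holds no values per library. Depth limits low genes such as ACTA2, NEXN, ST7-AS1, ACTG2, TPM2 and CSRP2, which averaged 1.45, 2.44, 2.52, 2.77, 2.84 and 3.01 CPM.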

Other observations

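Some genes beside the 9 had large values of their own; they were picked after those values were seen. ZFP36L1, an mRNA-decay factor next to ACTN1 on chromosome 14 (68787660 to 68796253, hg38), was 10.2-fold lower per the authors' deposited table (log2 -3.34, SE 0.15, edgeR FDR 3.78e-10). BACE1, the beta-secretase gene 77.8 kb from TAGLN, was 5.53-fold lower per the authors' deposited table (log2 -2.47, SE 0.18, edgeR FDR 4.93e-08). WDR91, an endosomal protein gene 213 kb from CALD1, was 5.74-fold higher per the authors' deposited table (log2 2.52, SE 0.16, edgeR FDR 8.14e-09). These calls held under each of the 6 alternatives.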
